A study of Mus musculus with 5 samples.

Results

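Imprinted genes are transcribed mainly from the allele inherited from 1 parent, and many of them adjust fetal growth. The genes described here are 10 of 23284 gene symbols in count tables of mouse forelimb buds, chosen by name: Dlk1, Meg3, Rian, Mirg, Peg3, Mest, Plagl1, Cdkn1c, Grb10 and Nnat. They were chosen with earlier results of these data known. All 10 were in all 5 tables and passed the filter on low counts, with 484 to 219187 reads per library. The 5 libraries of total RNA fell into 3 groups. The E10.5 group was 1 library of whole forelimb bud with the strain label CD1. The wild-type group was 2 libraries of micro-dissected distal forelimb at E11.5, the part where digits arise, on a mixed C57BL/6 and CD1 background. The mutant group was 2 libraries of the same part and stage from Hoxa13-/-;Hoxd13-/- embryos on the same mixed background. Its Hoxa13 alleles carry a neomycin cassette in the coding region, and its Hoxd13 alleles carry lacZ in the first exon. Hoxa13 and Hoxd13 encode transcription factors of the digit-forming region, and the study asked how their activity acts in digit development. Each E11.5 library came from a separate pool of dissected tissue (N = 4 in the protocol, without saying whether per pool), so the replicate spread is that between pools. The reads were not split by parental allele, so every value below is the sum of both alleles.

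Across the libraries 45115494 to 84172202 reads were counted in genes, and the share of reads outside any annotated feature was 24.3% at E10.5, 34.4% and 39.6% in the mutant and 39.2% and 30.3% in wild type. Hoxd13 was at 47.7 and 40.0 CPM (reads per 1000000 reads counted in genes) in mutant libraries 1 and 2 and at 247 and 246 in wild type. Hoxa13 was at 48.0 and 39.8 CPM in mutant libraries and 50.8 and 47.2 in wild-type ones, and reads outside the insertion can remain, so it does not check the label. All 10 limb mesenchyme markers had reads in every group, with summed levels of 2052 to 2085 CPM in mutant libraries, 1925 to 2026 in wild type and 1654 at E10.5. Of these markers 1 rose and 6 fell in the mutant, where 3.82% of all tested genes rose and 3.34% fell. Among erythroid markers 1 of 9 tested rose and 0 fell (summed 3022 to 3071 CPM in mutant libraries, 2357 to 2450 in wild type). Hba-a1 was at 0 in all libraries. Reads aligned to more than 1 site were not counted in genes, and why Hba-a1 was at 0 was not tested. Among macrophage markers 2 of 10 rose and 0 fell (76.2 to 78.6 against 50.1 to 64.1 CPM), and among endothelial markers 1 of 10 rose and 0 fell (269 to 293 against 246 to 249). Of 12 muscle markers 0 rose and 1 fell (149 to 194 against 208 to 237 CPM). Of 10 neuron and Schwann cell markers 1 rose and 2 fell (45.4 to 45.6 against 52.0 to 56.4), and of 10 surface ectoderm markers 1 rose and 2 fell (325 to 348 against 332 to 343). The part of these shifts in the results below was not tested, and in bulk tissue fewer cells of a type and less RNA per cell cannot be told apart.

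As background, the 10 genes act at several levels of growth control. Dlk1 encodes a transmembrane and secreted protein related to the Notch ligands that holds back differentiation. Meg3, Rian and Mirg are noncoding RNAs of the same imprinted domain on chromosome 12, where Dlk1 is expressed from the paternal allele and the 3 noncoding RNAs from the maternal one. Rian contains small nucleolar RNAs and Mirg contains microRNAs. Peg3 and Plagl1 encode zinc finger transcription factors, and Mest encodes a protein of the alpha/beta hydrolase family. Nnat encodes a small membrane proteolipid first known from the newborn brain. These 4 are paternally expressed and lie on chromosomes 7, 10, 6 and 2. Cdkn1c, on chromosome 7, encodes p57, an inhibitor of cyclin-dependent kinases. Grb10, on chromosome 11, encodes an adaptor that dampens insulin and IGF receptor signalling. Both are growth inhibitors expressed mainly from the maternal allele, with Grb10 paternal in neurons. Plagl1 is described in the literature as a regulator of a network of imprinted genes that includes several of the others.

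The RefSeq promoter table (GRCm38.p6) held windows for 9 of the 10 genes, each 300 bases from 250 before to 50 after an annotated start. The windows below belong to the 3 genes that rose in the mutant (Dlk1, Rian and Mest) and to Peg3, whose difference between stages was of like size to that of Mest. Capitals mark CG dinucleotides, the letters at which mammalian DNA is methylated and at which parental imprints are carried.
Dlk1, chr12:109452573-109452872, plus strand: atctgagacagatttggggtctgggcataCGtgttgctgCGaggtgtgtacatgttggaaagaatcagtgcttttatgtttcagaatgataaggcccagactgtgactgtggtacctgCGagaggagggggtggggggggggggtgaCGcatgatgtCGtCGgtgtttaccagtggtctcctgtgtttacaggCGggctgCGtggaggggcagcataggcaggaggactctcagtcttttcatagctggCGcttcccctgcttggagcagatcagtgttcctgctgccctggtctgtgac
Rian, chr12:109603695-109603994, plus strand: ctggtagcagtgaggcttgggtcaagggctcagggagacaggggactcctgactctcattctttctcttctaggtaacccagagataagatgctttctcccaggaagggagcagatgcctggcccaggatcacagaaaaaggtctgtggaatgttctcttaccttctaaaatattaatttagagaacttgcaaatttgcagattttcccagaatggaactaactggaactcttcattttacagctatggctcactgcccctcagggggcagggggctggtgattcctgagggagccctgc
Mest, chr6:30737800-30738099, plus strand: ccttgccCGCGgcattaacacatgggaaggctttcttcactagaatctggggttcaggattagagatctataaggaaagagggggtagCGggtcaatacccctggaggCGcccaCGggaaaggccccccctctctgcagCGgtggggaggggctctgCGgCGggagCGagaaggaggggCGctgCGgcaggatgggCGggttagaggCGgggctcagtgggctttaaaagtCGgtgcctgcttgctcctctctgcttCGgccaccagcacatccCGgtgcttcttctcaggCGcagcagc
Peg3, chr7:6730370-6730669, minus strand: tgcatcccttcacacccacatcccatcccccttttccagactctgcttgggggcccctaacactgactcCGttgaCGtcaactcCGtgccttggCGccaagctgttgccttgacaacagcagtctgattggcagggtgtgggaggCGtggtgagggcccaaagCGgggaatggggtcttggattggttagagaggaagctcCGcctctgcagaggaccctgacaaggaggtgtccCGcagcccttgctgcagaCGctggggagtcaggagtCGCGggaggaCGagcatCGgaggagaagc
The printed Mest window, 1 of 3 for that gene, held 17 CG dinucleotides, the Peg3 window 13, the Dlk1 window 9 and the Rian window 0, beside a median of 7 over 32851 windows. Across the 13 windows of the 9 genes the Grb10 windows held 45 and 9, and the Plagl1 window held 26. The letters CAATAAA, a HOX13-type motif, were searched on both strands and stood in none of the 13 windows, against 4.60% of all windows. GGGGCCCC, a PLAGL1-type motif, stood in the Peg3 window alone among the 13 and in 1.08% of all windows. AAGATGGC, a YY1-type motif, stood in none of the 13 and in 2.75% of all windows. A window without these letters says nothing of the factor.

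In the mutant, 3 of the 10 genes rose, 0 fell and 7 did not pass the test. Dlk1 rose more than 2-fold, while Mest and Rian rose by about a fold of 1.35. A rise or fall here is an adjusted p below 0.05 in edgeR's quasi-likelihood test over 16166 genes with Benjamini-Hochberg adjustment. Of all genes tested 3.82% rose and 3.34% fell, 7.16% in all. Both mutant libraries lay above both wild-type libraries in 7 of the 10 and below them in 0. Of all tested genes 24.7% showed the first pattern, 24.2% the second and 48.9% either. Dlk1, Meg3, Rian and Mirg were among the 7 and share 1 imprinted domain, so they need not vary independently. The median log2 fold change was 0.34 over the 10 genes and -0.000819 over all genes tested. Of the 9 tested erythroid markers 8 showed the first pattern and 1 the second, with a median of 0.34. These counts were 6 and 0 of 10 for macrophage markers (median 0.27) and 5 and 2 of 10 for endothelial ones (0.17). They were 2 and 7 of 10 for limb mesenchyme (-0.41) and 1 and 5 of 12 for muscle (-0.22). For neuron and Schwann cells they were 2 and 4 of 10 (-0.17), and for surface ectoderm 3 and 3 of 10 (0.006). Because the 10 genes were chosen with earlier results of these data known, these shares and medians are description and not a test. Of the 10 genes, the 3 whose libraries overlapped were Plagl1, Cdkn1c and Grb10. Of the 5 paternally expressed genes 2 rose, and of the 5 maternally expressed genes 1 rose. Over the 13 alternatives the count of risen genes ran from 3 to 6. It was 4 with total counts or without wild-type replicate 1. It was 5 under, among others, the DESeq2 test, the newer edgeR estimate, upper-quartile scaling, no count filter or without wild-type replicate 2, as Meg3 and Nnat or Nnat and Peg3 joined. It was 6 with the share of reads outside features as a covariate, a fit chosen after seeing the data. Over all genes tested, 617 rose in the main fit. That count also grew without the count filter and with the covariate, as given in the section on processing.

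**Figure D1:**
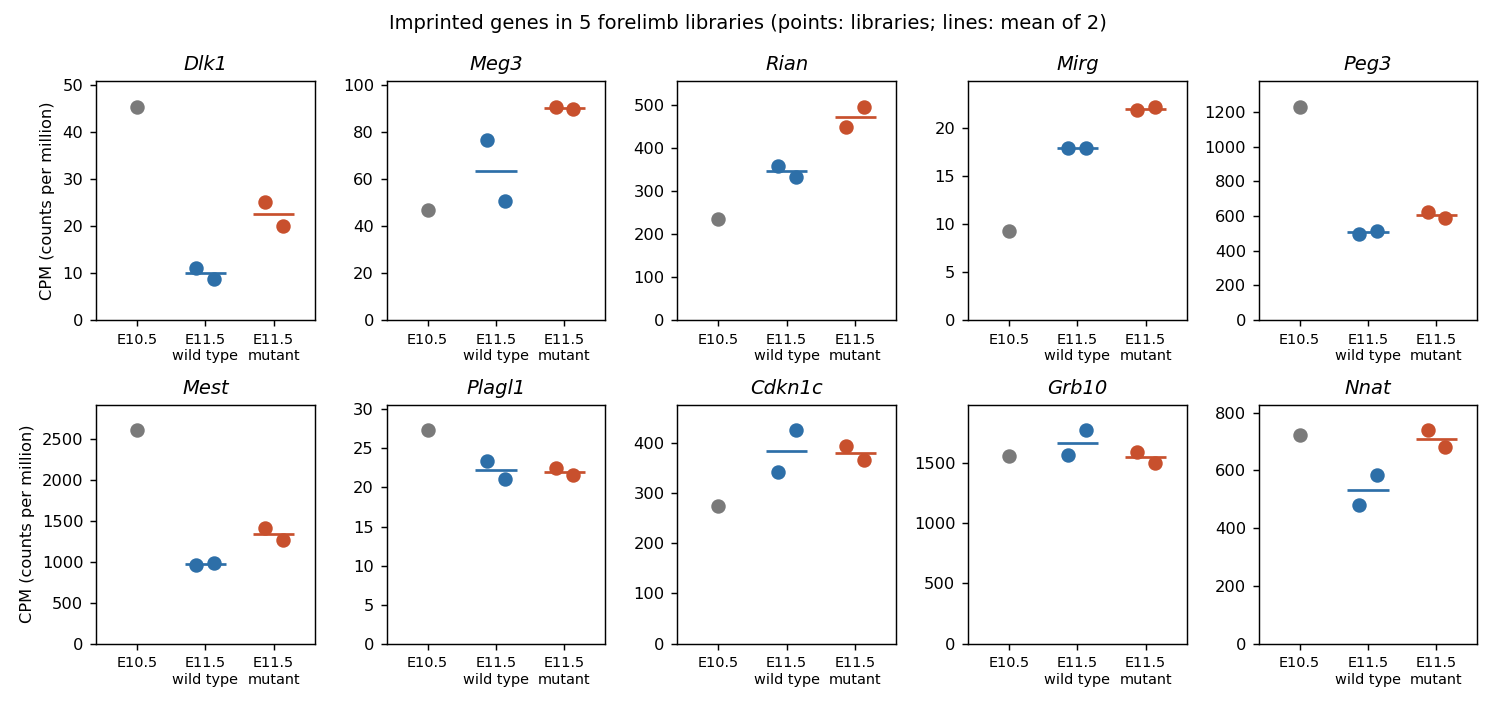
Level of each of the 10 genes in CPM (vertical axes from 0, a scale of its own per gene) in the E10.5 library (grey), the 2 wild-type libraries (blue) and the 2 mutant libraries (orange); lines are means of 2. Dlk1, Mest, Peg3 and Plagl1 are highest at E10.5, and Plagl1, Cdkn1c and Grb10 have overlapping E11.5 groups.

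Dlk1, the relative of the Notch ligands, had the largest fold change of the 10. It measured 25.1 and 20.1 CPM in mutant libraries 1 and 2, 11.1 and 8.67 CPM in wild-type libraries 1 and 2 and 45.4 CPM at E10.5. Both mutant libraries were above both wild-type libraries and below the E10.5 library. The mean rose from 9.91 ± 1.76 (SD, n = 2) to 22.6 ± 3.57 CPM, or 1.18 in log2 (SE 0.15, adjusted p = 0.000441). It passed the test under all 13 alternatives, with log2 fold changes of 1.01 to 1.34. The rise rested on 484 to 1504 reads per E11.5 library. Dlk2, its non-imprinted relative, was at 0.900 ± 0.0189 CPM in wild type, with a log2 fold change of 0.35 (adjusted p = 0.623).

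The 3 noncoding RNAs of the Dlk1 domain were all above wild type in both mutant libraries, and only Rian passed the test. Rian measured 448 and 496 CPM in mutant libraries, 359 and 333 in wild type and 234 at E10.5. Its mean went from 346 ± 18.2 to 472 ± 34.2 CPM, or 0.43 in log2 (SE 0.09, adjusted p = 0.0111). The call ended without mutant replicate 2 (0.36, adjusted p = 0.202), and over the 13 alternatives the adjusted p was 0.000222 to 0.202. Meg3, the RNA at the start of the maternally expressed unit, measured 90.9 and 90.0 CPM in mutant libraries, 76.7 and 50.6 in wild type and 46.8 at E10.5. The mutant libraries were nearly equal, and the wild-type ones stood far apart. Its log2 fold change was 0.50 (SE 0.14, 95% interval 0.19 to 0.81) with an adjusted p of 0.0559, just outside the threshold. It was 0.25 without wild-type replicate 2 and 0.79 when library 1 was left out instead, and the adjusted p over the 13 alternatives from 8.41e-06 to 0.125. The share of reads outside features was 39.2% in wild-type library 1 and 30.3% in library 2, the same order as Meg3. In the mutant it was 34.4% and 39.6% while Meg3 was nearly equal, and at E10.5 it was 24.3% with Meg3 at 46.8 CPM. With that share as a covariate, a fit chosen after seeing the data, the Meg3 log2 fold change was 0.43 (adjusted p = 0.000782). The part of the share in the spread of Meg3 was not tested. Mirg, the microRNA host at the far end, measured 21.8 and 22.2 CPM in mutant libraries, 17.9 and 17.9 in wild type and 9.31 at E10.5. Its libraries agreed closely within each group, and its log2 fold change of 0.28 (SE 0.11, 95% interval 0.04 to 0.52) had an adjusted p of 0.166.

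Ratios of counts within a library do not depend on scaling, and Dlk1 was high in the mutant against each RNA of its domain. Per 100 Meg3 reads there were 27.7 and 22.3 Dlk1 reads in the mutant, 14.5 and 17.1 in wild type and 97.1 at E10.5. Per 100 Rian reads there were 5.62 and 4.05 Dlk1 reads in the mutant, 3.11 and 2.6 in wild type and 19.4 at E10.5. In both ratios the mutant libraries were above the wild-type ones and far below E10.5. The ratio of Mirg to Meg3 was 24 and 24.7 per 100 in the mutant and 23.4 and 35.4 in wild type, so these groups overlapped. Rian to Meg3 was 492 and 551 per 100 in the mutant, 468 and 658 in wild type and 501 at E10.5, and these groups overlapped as well. With 2 against 2 libraries no exact permutation test can reach the threshold, so the ratios are given without one.

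**Figure D2:**
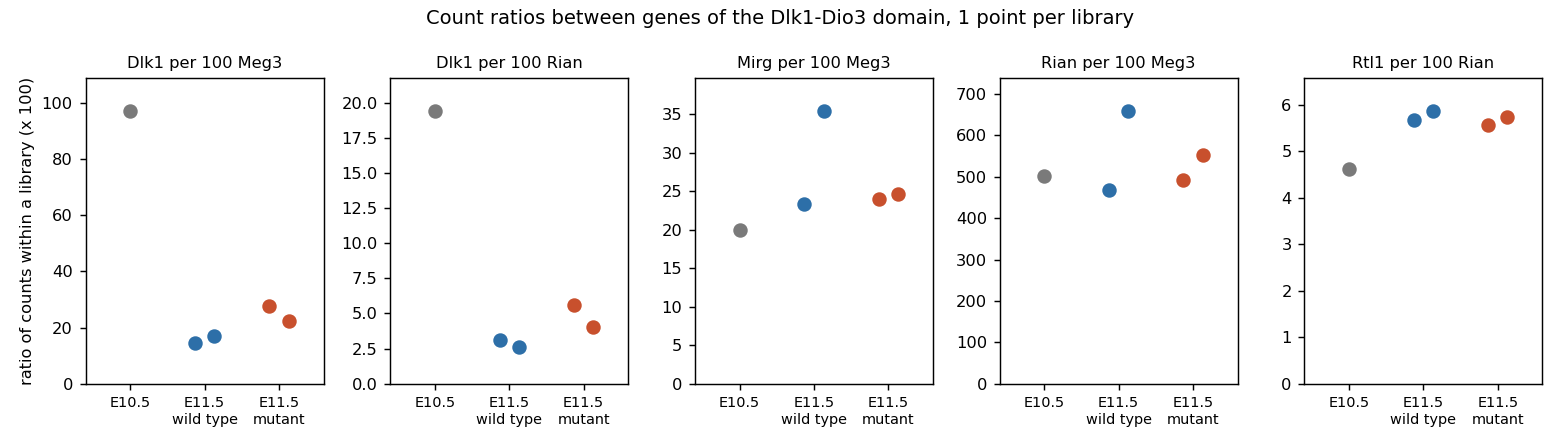
Ratios of read counts within each library (vertical axes, per 100 reads of the second gene, from 0) for genes of the Dlk1 domain, 1 point per library in the E10.5, wild-type and mutant groups. Dlk1 per 100 Meg3 is 97.1 at E10.5 and at most 27.7 at E11.5, while Rtl1 per 100 Rian stays between 4.63 and 5.87.

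Within the same domain, Rtl1 encodes a retrotransposon-derived protein of the placenta and is known as paternally expressed like Dlk1. It measured 24.9 and 28.5 CPM in mutant libraries, 20.4 and 19.6 in wild type and 10.8 at E10.5. Per 100 Rian reads there were 5.57 and 5.75 Rtl1 reads in the mutant, 5.69 and 5.87 in wild type and 4.63 at E10.5. Per 100 Dlk1 reads the Rtl1 count ran from 23.9 at E10.5 to 226 in wild-type library 2. Rtl1 rose by 0.40 (SE 0.11, adjusted p = 0.0498), at the edge of the threshold, and passed in 6 of 13 alternatives (adjusted p 0.0176 to 0.462). It lost the call without mutant replicate 1 (0.0653), without mutant replicate 2 (0.462) and without wild-type replicate 2 (0.0544). A maternally expressed RNA runs antisense to Rtl1, and with the strand setting not given in the sources used here, reads of both RNAs cannot be told apart. The tables also held 58 microRNA entries between Dlk1 and Dio3, the far end of the domain. All 7 entries inside an Rtl1 exon were listed at 0 in every library, 6 of them with a hairpin on the strand opposite to Rtl1. A group of 31 entries ran from the start of Rian to the start of Mirg and includes any within Rian. They summed to 9.81 and 12.5 CPM in mutant libraries, 9.0 and 8.79 in wild type and 4.44 at E10.5. The 10 entries within Mirg summed to 2.64 and 2.69 CPM in mutant libraries, 2.84 and 2.38 in wild type and 0.915 at E10.5. These are reads of longer RNA over the hairpins, not mature microRNAs, and the entries were grouped after the values were seen.

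Mest, the hydrolase-family gene, rose by a smaller step from a far higher count. It measured 1407 and 1262 CPM in mutant libraries, 966 and 982 in wild type and 2604 at E10.5. Both mutant libraries lay between wild type and E10.5. The mean rose from 974 ± 11.4 to 1335 ± 102 CPM, or 0.44 in log2 (SE 0.09, adjusted p = 0.0143). The call ended without mutant replicate 1 (0.36, adjusted p = 0.317), beside 2.19e-05 to 0.317 over the 13 alternatives. Mest also hosts a microRNA in an intron, Mir335, whose mature sequences from RefSeq are shown because the tables have an entry for its hairpin, with the seed (bases 2 to 8) in capitals.
mmu-miR-335-5p, chr6:30741314-30741336, plus strand: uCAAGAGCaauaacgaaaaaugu
mmu-miR-335-3p, chr6:30741354-30741375, plus strand: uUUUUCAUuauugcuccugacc
The Mir335 entry measured 4.90 and 5.26 CPM in mutant libraries, 3.66 and 3.62 in wild type and 5.38 at E10.5. Its log2 fold change of 0.47 (SE 0.19) had an adjusted p of 0.184, and E10.5 stood 0.80 above wild type in log2 where Mest stood 1.65 above it. Per 100 Mest reads there were 0.207 Mir335 reads at E10.5 and 0.348 to 0.417 in the E11.5 libraries. The entry was looked up after the Mest values were seen.

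Peg3, a zinc finger factor, measured 624 and 587 CPM in mutant libraries, 496 and 514 in wild type and 1231 at E10.5. The mutant libraries were above wild type by a small margin. Its log2 fold change of 0.25 (SE 0.09, 95% interval 0.05 to 0.44) had an adjusted p of 0.133, and it passed without wild-type replicate 2 (0.0213) and with the covariate (0.0367), within 0.0213 to 0.703 over the alternatives. Nnat, the membrane proteolipid gene, measured 738 and 682 CPM in mutant libraries, 480 and 583 in wild type and 724 at E10.5. Both mutant libraries were above both wild-type libraries. On the TMM scale they stood 0.46 and 0.34 above the wild-type mean in log2, and E10.5 stood 0.69 above it. Its log2 fold change was 0.40 (SE 0.11, 95% interval 0.16 to 0.64) with an adjusted p of 0.0511. It was 0.58 without wild-type replicate 2 and 0.24 when library 1 was left out instead, and the adjusted p over the alternatives ran from 1.68e-05 to 0.3, with 8 of 13 past the threshold. Nnat lies in an intron of Blcap, and Mest ends beside Copg2, each on the opposite strand. Blcap had a log2 fold change of 0.28 (adjusted p = 0.116) and Copg2 one of -0.05 (0.835).

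Plagl1, Cdkn1c and Grb10 had no difference that the test detected. Plagl1 measured 22.4 and 21.6 CPM in mutant libraries, 23.4 and 21.0 in wild type and 27.3 at E10.5, a log2 fold change of -0.02 (95% interval -0.26 to 0.21, adjusted p = 0.947). Cdkn1c measured 393 and 365 CPM in mutant libraries, 342 and 425 in wild type and 274 at E10.5, a log2 fold change of -0.03 (95% interval -0.28 to 0.22, adjusted p = 0.926). Grb10 measured 1589 and 1501 CPM in mutant libraries, 1561 and 1769 in wild type and 1554 at E10.5, a log2 fold change of -0.12 (95% interval -0.35 to 0.10, adjusted p = 0.587). For Cdkn1c the wild-type libraries bracketed both mutant libraries. The Grb10 fold passed the test without wild-type replicate 1 (-0.24, adjusted p = 0.0303), beside 0.0303 to 0.997 over the alternatives. Of 7 non-imprinted relatives (Dlk2, Plag1, Plagl2, Cdkn1a, Cdkn1b, Grb7 and Grb14) 0 rose and 0 fell, beside 7.16% of all tested genes called. Of their log2 fold changes 2 were above 0 and 5 below.

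**Figure D3:**
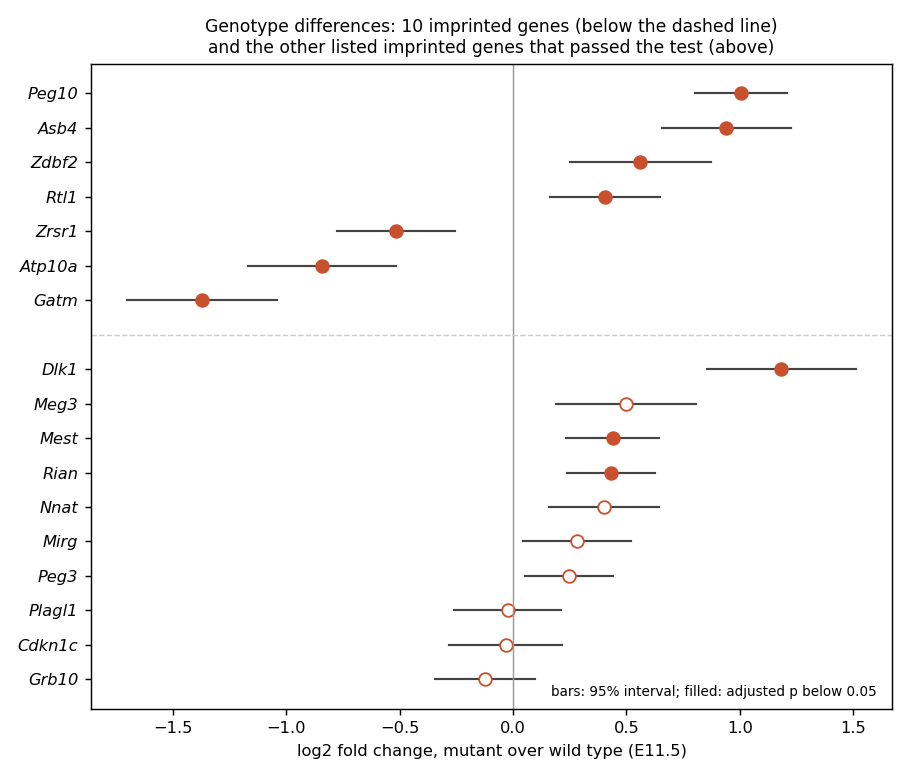
Log2 fold change of mutant over wild type at E11.5 (horizontal axis) with 95% intervals for the 10 genes (below the dashed line) and for the other listed imprinted genes that passed the test (above it). Filled points have an adjusted p below 0.05: Dlk1 stands at 1.18, Mest at 0.44 and Rian at 0.43.

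Coding genes of the set differed widely in abundance per length. Per kilobase of exon (GENCODE M21 transcripts linked to RefSeq), wild-type levels were 399 ± 54.3 CPM for Nnat, 351 ± 4.12 for Mest and 324 ± 28.7 for Grb10. Each of these 3 differed from the next by less than the larger of their SDs. Cdkn1c followed with 197 ± 30.3, then Peg3 with 58.1 ± 1.44, Plagl1 with 4.22 ± 0.312 and Dlk1 with 2.07 ± 0.367 CPM per kilobase. Using all annotated transcripts for the length, Cdkn1c (188) and Grb10 (183) changed places. Dlk1 was the lowest of the 7 in wild type and above Plagl1 at E10.5, with 9.49 against 5.19 CPM per kilobase. The authors' gene models, not given in the sources used here, may differ in length, and the noncoding RNAs were left out because their exon models vary.

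At E10.5, 3 of the 10 genes were at least 2-fold above both wild-type E11.5 libraries and 0 were 2-fold below. These were Dlk1, Mest and Peg3, all paternally expressed. Among the other listed imprinted genes, 3 of 23 paternally expressed and 3 of 23 maternally expressed ones were that much higher. Of all genes 3.86% were that much higher, 12.9% that much lower and 16.7% either. Stage, dissected part and strain label changed together here, and with 1 library at E10.5 there is no test. On log2 TMM-scaled CPM (TMM being edgeR's scaling) E10.5 stood above the wild-type mean by 2.44 for Dlk1, 1.65 for Mest and 1.52 for Peg3, folds of 5.42, 3.15 and 2.87. Nnat stood 0.69 and Plagl1 0.54 above wild type. Mirg (-0.71), Rian (-0.33), Cdkn1c (-0.24) and Meg3 (-0.18) stood below, with Meg3 above wild-type library 2 by 0.10 and below library 1 by a log2 difference of -0.46. Grb10 stood 0.14 above wild type and -0.10 from it when scaled by total counts alone. That scaling moved the median of all genes to -0.25 from -0.02, so single differences are read against it. Of the marker lists, 8 of 10 macrophage and 7 of 12 muscle markers were at least 2-fold lower at E10.5 and 3 of 9 erythroid markers that much higher, with summed levels of 15.8, 104 and 3467 CPM. Their part in these differences was not tested.

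The genotype and stage comparisons share the wild-type libraries, so the values are given side by side without a measure of likeness. Relative to the wild-type mean in log2, Dlk1 stood at 1.34 and 1.0 in the mutant and 2.44 at E10.5. Mest stood at 0.51 and 0.35 in the mutant and 1.65 at E10.5. Peg3 stood at 0.29 and 0.19 in the mutant and 1.52 at E10.5. Rian stood at 0.36 and 0.49 in the mutant and -0.33 at E10.5, and Mirg at 0.27 and 0.28 against -0.71. Nnat stood at 0.46 and 0.34 against 0.69, and Meg3 at 0.53 and 0.50 against -0.18. The mutant values of Dlk1, Mest, Peg3 and Nnat lay on the E10.5 side of the wild-type mean, and those of Rian and Mirg on the other side. For Meg3 the E10.5 library lay between the wild-type libraries (0.28 and -0.28), so Meg3 has no E10.5 side. Plagl1, Cdkn1c and Grb10 had overlapping E11.5 groups and are placed on neither side.

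**Figure D4:**
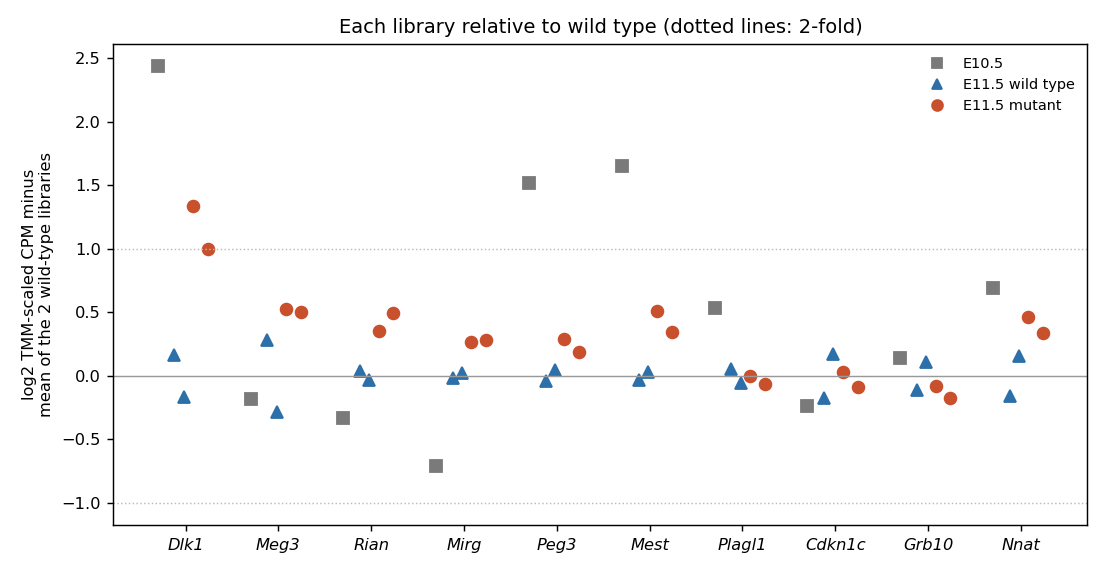
Log2 TMM-scaled CPM of each library minus the mean of the 2 wild-type libraries (vertical axis) for the 10 genes; squares are E10.5, triangles wild type and circles mutant, and dotted lines mark 2-fold. Dlk1, Peg3 and Mest pass the upper line at E10.5, at 2.44, 1.52 and 1.65.

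By likeness of pattern over the 5 libraries, measured as the smallest Euclidean distance between centred log2 TMM-scaled CPM among 10886 genes, the nearest to Dlk1 were Hsd11b2, which inactivates glucocorticoids (distance 0.187), and Peg10 (0.277), itself an imprinted gene. The nearest to Rian were the clustered protocadherin genes Pcdhgb4 (0.0857) and Pcdhgb6 (0.0871), whose transcripts share exons, so that their counts are uncertain. The nearest to Mest were Olfm1, a secreted olfactomedin (0.0917), and Mapk12, a p38 kinase (0.0961), and Peg3 was the fifth nearest of all genes (0.202). The closest other member stood at rank 23 for Dlk1 (Mest) and at rank 285 for Rian (Mirg).

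Outside the 10 genes, 52 further imprinted genes were listed, of which 51 were in the tables and 45 were tested. Of these 4 rose and 3 fell, where 3.82% of all tested genes rose and 3.34% fell. Their median log2 fold change was 0.06. Peg10, a retrotransposon-derived gene of the placenta, measured 161 and 148 CPM in mutant libraries, 81.3 and 71.3 in wild type and 361 at E10.5. Its fold was 2.01 (SE 0.09 in log2, adjusted p = 4.56e-05), and at E10.5 it stood 2.48 above wild type. Asb4, which encodes an ankyrin repeat protein and lies in the same imprinted cluster of chromosome 6, rose from 256 ± 53.5 to 498 ± 8.96 CPM (0.94, SE 0.13, adjusted p = 0.000783). Both mutant Asb4 libraries (504 and 492) were above both wild-type ones (218 and 294) and below E10.5 (590). Sgce and Ppp1r9a of that cluster had log2 fold changes of 0.19 (adjusted p = 0.407) and 0.28 (0.0753). Zdbf2, a paternally expressed zinc finger gene, rose by 0.56 (SE 0.14, adjusted p = 0.0345). Rtl1 was the fourth. The Zdbf2 call ended without mutant replicate 2 (0.191), without wild-type replicate 2 (0.0701) and with total-count scaling (0.0858), within 0.000151 to 0.191 over the alternatives.

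The 3 that fell were Gatm, Atp10a and Zrsr1. Gatm encodes the enzyme of the first step of creatine synthesis and is imprinted in extraembryonic tissue. It fell from 11.9 ± 0.270 to 4.64 ± 0.294 CPM, a log2 change of -1.37 (SE 0.15) with adjusted p = 0.000174, and stood at 4.42 CPM at E10.5. Atp10a, a phospholipid flippase gene, fell from 10.6 ± 0.364 to 5.98 ± 0.379 CPM (-0.84, SE 0.15, adjusted p = 0.00454). Zrsr1, a splicing factor relative, fell from 20.1 ± 0.641 to 14.2 ± 1.09 CPM (-0.52, SE 0.12, adjusted p = 0.0211), a call that ended without mutant replicate 2 (0.202), beside 0.00282 to 0.202 over the alternatives. For context, Igf2, the fetal growth factor, was at 819 and 796 CPM in mutant libraries and 673 and 775 in wild-type ones (0.14, adjusted p = 0.507). The noncoding RNA H19 of the same domain was at 7607 and 7824 CPM in mutant libraries against 5830 and 7049 in wild-type ones (0.24, adjusted p = 0.283). Both passed without wild-type replicate 2, with log2 fold changes of 0.28 for Igf2 and 0.42 for H19.

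Of 46 further imprinted genes compared by stage, 6 were at least 2-fold higher at E10.5, beside 3.86% of all genes. These were Peg10, Zdbf2 and Usp29, listed as paternally expressed, and Asb4, Zim1 and Klf14, listed as maternally expressed. Another 3 were that much lower (Dcn, Tnfrsf23 and Gatm), beside 12.9% of all genes. Among these Dcn, which encodes the matrix proteoglycan decorin, was at 0.523 CPM at E10.5 and 8.42 and 10.1 in wild type, a log2 difference of -3.83.

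Among 24 tested neighbours of the members' domains 1 rose, which was Rtl1, and 0 fell (median 0.02), beside 7.16% of all tested genes called in either direction. Beside Peg3, Usp29, which shares its promoter region, had 0.30 (adjusted p = 0.302) and Zim1 had 0.41 (0.0767). Both stood at least 2-fold above wild type at E10.5, by 1.29 and 1.43 in log2, as Peg3 did. Of the 16 genes of the imprinted gene network in the literature 2 rose (Dlk1 and Mest) and 1 fell (Gatm), with a median of 0.09. The 9 network genes outside the set had 0 risen and 1 fallen. Among 16 tested genes that set or keep imprints, such as Dnmt1, Uhrf1, Trim28 and Zfp57, 0 rose and 0 fell, with a median of -0.01. Trim28 was at 700 and 632 CPM in mutant libraries and 679 and 656 in wild-type ones (-0.02, adjusted p = 0.951), and Dnmt1 had -0.16 (0.332).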

How the data were processed

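The deposited values were whole-number read counts per gene symbol, 1 table per library. The submitters' processing notes name TopHat2 2.0.13, Cufflinks 2.1.1, HTSeq, SAMtools and mm9; strand setting and gene models are not stated there. Per the labels' protocols, rRNA-depleted, strand-specific libraries were sequenced for 50 cycles per end. HTSeq total lines (not unique 9.10% to 14.8%, ambiguous 0.751% to 1.14%, and reads in no feature) were left out of library sizes.

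CPM was computed from gene reads alone. The 4 E11.5 libraries were fitted with edgeR 4.0.16 in R 4.3.3 (filterByExpr minimum count 10 and total 15, TMM, genotype only, quasi-likelihood F test, Benjamini-Hochberg adjustment over all tested genes). The E10.5 library was compared without a test on TMM-scaled log2 CPM, prior count 2. The 13 genotype alternatives included DESeq2 1.42.0 and 1 chosen after seeing the data, and there were 7 for the stage. The procedure was tested on simulated data.

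The 10 genes and all lists were chosen with earlier results of these data known. Also named were listed imprinted genes and neighbours past the test, Igf2, H19, and the 2 genes nearest in pattern to each risen member. Dlk2, Trim28, Dnmt1, Usp29, Zim1, Sgce, Ppp1r9a, Blcap, Copg2, Kcnq1ot1 and Mir335 were named after their values were seen. Promoter windows and microRNA sequences are from RefSeq (GRCm38.p6) and were not joined to mm9 coordinates.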

Additional observations from a re-analysis of the deposited data

How the results depend on the processing

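Dlk1 passed the test with the same direction under all 13 alternatives; leaving out 1 replicate gave log2 fold changes of 1.01 to 1.34. The same leave-one-out range was 0.36 to 0.50 for Rian, 0.36 to 0.52 for Mest, 0.25 to 0.79 for Meg3, 0.24 to 0.58 for Nnat, 0.19 to 0.30 for Peg3, -0.0689 to 0.0247 for Plagl1, -0.21 to 0.17 for Cdkn1c and -0.24 to 0.000999 for Grb10. Rian (without mutant replicate 2) and Mest (without mutant replicate 1) then missed the threshold. Signs changed for Plagl1 without mutant replicate 2 (0.0097) or wild-type replicate 1 (0.0247). They changed for Cdkn1c without mutant replicate 2 (0.0271) or wild-type replicate 2 (0.165) and with the no-feature covariate (0.0587), and for Grb10 without wild-type replicate 2 (0.000999). Where a replicate was left out its group held 1 library, taken to vary like the other group. The cause of these changes was not tested.

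Meg3 passed with upper-quartile factors (0.51), no count filter (0.50), the DESeq2 test (0.50), the newer quasi-likelihood estimate (0.50) and the no-feature covariate (0.43). Nnat passed with total counts (0.42), upper-quartile factors (0.41), no filter (0.40), DESeq2 (0.40), the newer estimate (0.40) and the covariate (0.48), and Peg3 with the covariate (0.28). Risen members numbered 5 with upper-quartile factors, no filter, DESeq2 or the newer estimate, 6 with the covariate and 3 to 5 without 1 replicate (fallen 0 to 1). The labels do not say whether libraries of equal replicate number share a litter or day. The deviations of same-numbered libraries from their group means had a correlation of -0.047 over 16166 genes. With 2 libraries per group this cannot settle whether they were paired. With the replicate block, Meg3 was 0.52 (adjusted p = 0.0129), Nnat 0.41 (0.0318), and 5 members had risen.

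All risen genes numbered 959 with no filter, 1076 with the covariate and 410 to 1113 without 1 replicate (1113 without wild-type replicate 1), and fallen genes 880 with the covariate and 373 to 905. Other imprinted genes that rose numbered 2 with total counts, 7 with no filter and 2 to 7 without 1 replicate, and those that fell 2 to 4. Risen neighbours numbered 0 with DESeq2 size factors, total counts, the newer estimate or all 5 libraries, 2 with no filter and 0 to 2 without 1 replicate. Risen network genes numbered 4 with no filter, 5 with the covariate and 2 to 5 (fallen 1 to 2), and imprint regulators that rose or fell 0 to 1 each. At E10.5 the 3 higher members stayed at 3 in all 7 alternatives. All higher genes numbered 412 with total counts and 858 to 985 without 1 replicate, lower ones 2454 to 2856, and other imprinted genes that were lower 6 with total counts and 4 to 7. With 2 libraries per group and 1 at E10.5, small differences may have gone undetected.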

Other observations

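Kcnq1ot1, the paternally expressed noncoding RNA of the Cdkn1c domain, was looked at because its 2 wild-type libraries stood apart. It measured 1072 and 659 CPM in wild-type libraries 1 and 2, 773 and 1005 CPM in mutant libraries 1 and 2 and 407 CPM at E10.5. Its level was high in the libraries with a high share of reads outside annotated features and low in those with a low one. That share was 39.2% and 30.3% in wild type, 34.4% and 39.6% in the mutant and 24.3% at E10.5. The part of this share in the Kcnq1ot1 level was not tested.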
